A study of Canis lupus familiaris with 30 samples.

Results

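Wnt signalling was examined through 50 genes of the canine annotation: 19 Wnt ligands, 10 frizzled receptors, the co-receptors LRP5 and LRP6, the R-spondins RSPO1, RSPO2, RSPO3 and RSPO4 with their receptors LGR4 and LGR5, 10 secreted inhibitors, and the feedback genes AXIN2, RNF43 and ZNRF3. They were chosen by symbol, with earlier results of these data known, and make up 50 of the 30424 genes in the count table, 15780 of which carry a symbol. RNA had been sequenced from 30 canine thyroid carcinomas, each labeled as tumor tissue of the thyroid gland, and no non-tumor thyroid was analysed here. The study divided its tumors into follicular carcinomas, which arise from the hormone-producing follicular cells, and medullary carcinomas, which arise from the calcitonin-producing C cells. The sample labels do not carry that division, so the tumors form one group of 30 here, and each is described by its own marker genes.

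Wnt ligands are secreted lipid-modified proteins that bind a frizzled receptor and, for the canonical branch, an LRP co-receptor, which stabilizes beta-catenin and switches on target genes. AXIN2 is one of those targets and a brake on the pathway. RNF43 and ZNRF3 are membrane ubiquitin ligases that remove frizzled receptors, and R-spondins, through LGR receptors, relieve that removal. The secreted frizzled-related proteins (SFRPs, with FRZB) and WIF1 bind Wnt ligands outside the cell, whereas DKK1, DKK2 and DKK4 bind the LRP co-receptors.

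Total counts ran from 12288945 in TC538 to 45148677 in TC1869. Values below are normalized counts (counts divided by a median-of-ratios size factor) or levels (log2 of the normalized count plus 1), and genes are compared with themselves across tumors, never with each other, because counts depend on transcript length. When tumors were clustered without the 50 genes they fell into 2 main branches of 25 and 5. The 5 tumors of the smaller branch, TC1020, TC1473, TC1601, TC1936 and TC2289, were also the 5 with the highest mean level of 12 C-cell marker genes, from 12.2 in TC2289 to 14.4 in TC1936, while the next tumor, TC22, reached 8.00. CALCA, the calcitonin gene, had levels of 16.8 in TC1601, 17.8 in TC1473, 18.7 in TC1020 and 19.2 in TC1936 but 6.94 in TC2289, close to the median of all tumors (6.92) and below 12.9 in TC22 and 11.9 in TC812. TC2289 is thus high for the C-cell list as a whole and not for CALCA. Its CALCB level was 8.48, against a median of 0 in the larger branch and a highest value there of 8.66 in TC22. Their follicular marker level (14 genes, TG among them) was 3.78 in TC2289, 4.66 in TC1020, 6.13 in TC1473, 7.66 in TC1936 and 10.0 in TC1601, so TC1601 carried both sets of markers. In the larger branch the follicular marker level ran from 3.69 in TC1088 to 14.6 in TC1869, with a median of 12.5. TC1088 was thus low for the follicular markers, with levels of 3.70 for TG and 1.00 for TSHR, and its C-cell marker level was 4.44. TC538 also stood apart. It had the fewest counts, a size factor of 0.279, and held the lowest level of 18.7% and the highest level of 20.0% of the 18711 genes that passed the count filter. In bulk tissue, fewer cells of a type and less RNA per cell cannot be told apart.

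Of the 50 genes, 39 had at least 10 counts in at least 5 tumors and 28 were counted in every tumor. All 10 frizzled receptors, both LRP co-receptors and all 3 feedback genes passed, as did 13 of 19 ligands and 9 of 10 inhibitors. Of the R-spondin and LGR group, LGR4 and LGR5 passed and none of the 4 R-spondins did. The ligands that did not pass were WNT1, WNT3A, WNT6, WNT7A, WNT8A and WNT10B, and the inhibitor was DKK1. The spread between the 10th and 90th percentile of tumors had a median of 3.68 log2 units over the 39 genes and 2.13 over all genes that passed. It was widest in the secreted inhibitors, with a median of 4.99, and narrowest in the LRP co-receptors, with 1.90. SFRP2 lay at the 99.6th percentile of all genes for this spread, SFRP1 at the 98.7th and LGR5 at the 97.4th, whereas LRP6 lay at the 23.7th. The map of the 39 genes by tumor shows these differences gene by gene.

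**Figure D1:**
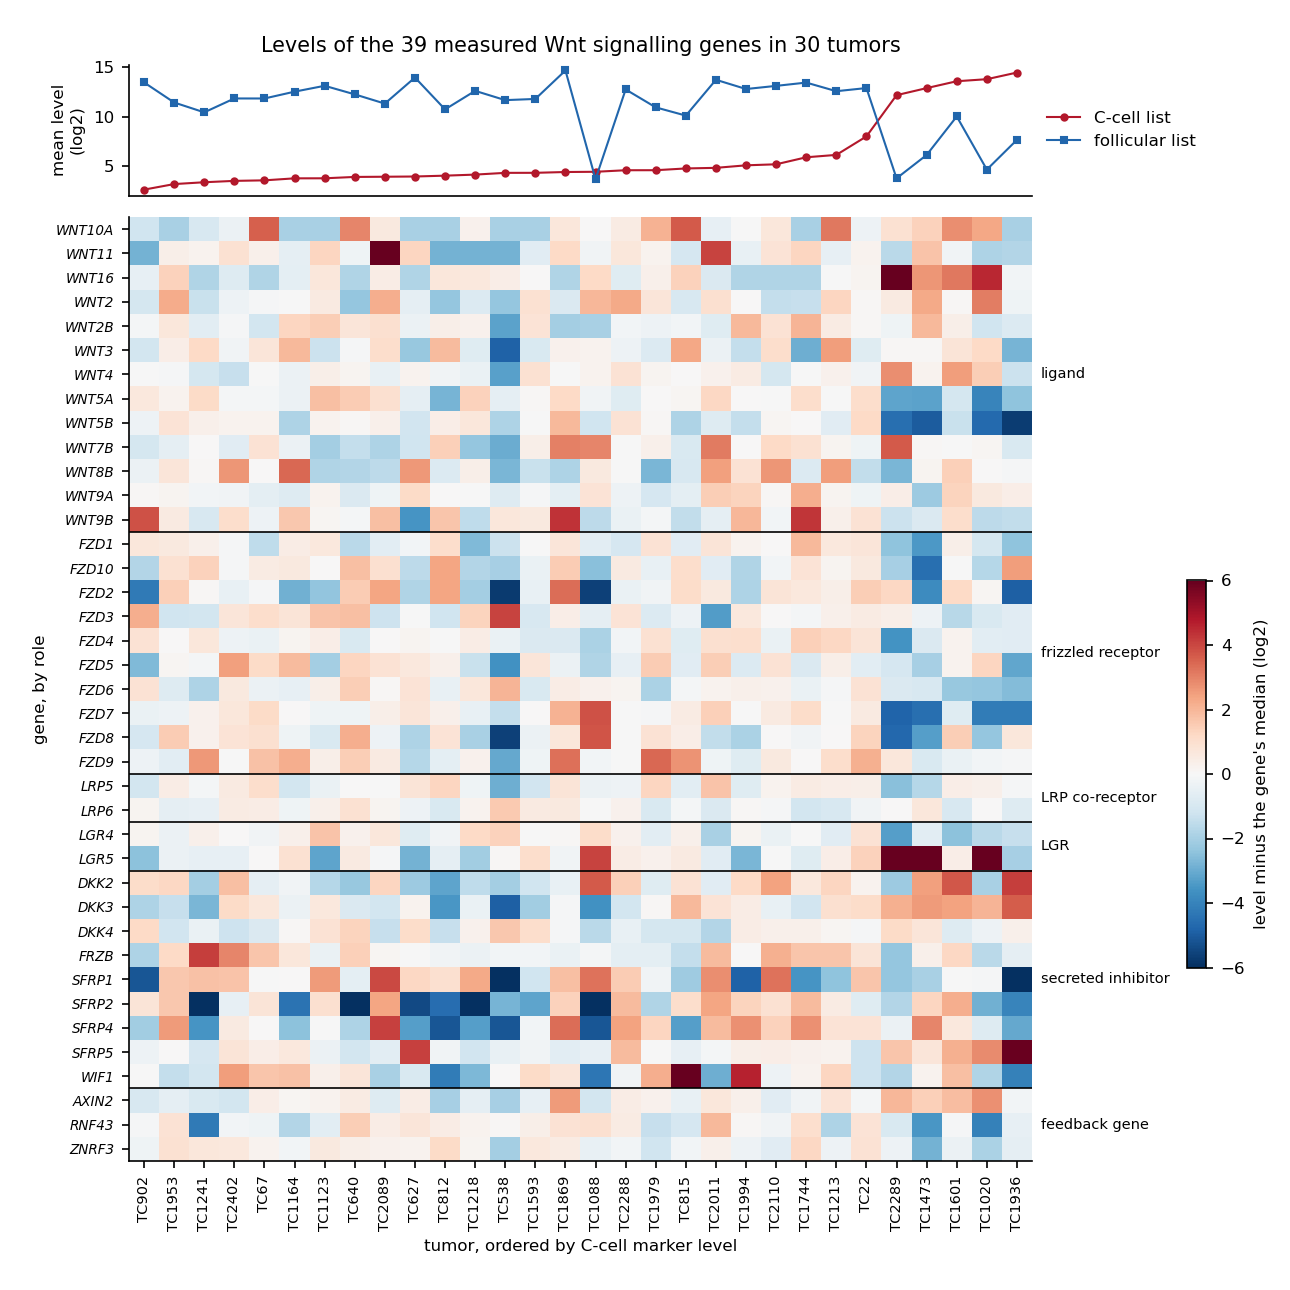
Rows are the 39 Wnt signalling genes that passed the count filter, grouped by role, and columns are the 30 tumors ordered by the mean level of 12 C-cell marker genes. Color is the level minus that gene's median over tumors (log2, colors saturate at the ends of the scale), and the lines above give the mean C-cell and follicular marker levels. The right-hand tumors except TC1601 show low WNT5A, WNT5B and FZD7, and the SFRP2 and SFRP1 rows hold the widest swings.

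Among the ligands, WNT5A and WNT5B, which act largely through non-canonical branches of the pathway, were counted in all 30 tumors. WNT5B had a median of 3388 normalized counts and a highest value of 13008 in TC1869. Its 4 lowest values were 63.5 in TC1936, 106 in TC1473, 131 in TC1020 and 146 in TC2289, all tumors with high C-cell markers. The fifth of those tumors, TC1601, had 1331 normalized counts of WNT5B. WNT5A ran from 32.9 normalized counts in TC1020 through a median of 529 to 1864 in TC1123. TC1473 with 55.5, TC2289 with 57.6 and TC1936 with 99.4 were again near its low end, but so was TC812 with 76.7, a tumor of the larger branch. WNT3, a canonical ligand, had a median of 28.2 normalized counts, a highest value of 167 in TC1213 and a count of 0 in TC538. A count of 0 allows up to 3 counts, and in TC538 such a floor is a larger normalized value than elsewhere because of its small size factor.

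WNT11, WNT16 and RSPO2 each had a single tumor far above the rest. WNT16 reached 1731 normalized counts (1351 counts) in TC2289, 4.45 log2 units above the next tumor, TC1020 with 78.3, and was at 0 in 8 tumors. TC1601 with 30.0 and TC1473 with 20.9 followed, so 4 of the 5 tumors with high C-cell markers held the highest WNT16 values, and TC1936 did not. WNT11, another non-canonical ligand, reached 867 normalized counts in TC2089 against 116 in TC2011 and a median of 6.09. RSPO2 reached 778 normalized counts (736 counts) in TC1936, was at 0 in 18 tumors and stayed at or below 2.50 in the others. TC1936 was thus the 1 tumor with over 10 counts of this R-spondin. RSPO3, named after its values were seen, had its highest value, 123 normalized counts, in TC812.

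The frizzled receptors split by how they ranged. FZD7 had a median of 526 normalized counts and its 4 lowest values, 17.9 in TC2289, 21.8 in TC1473, 27.5 in TC1936 and 28.0 in TC1020, came from the same 4 tumors as for WNT5B. The next tumor up was TC538 with 197, a clear step above them. Its highest value, 7380 in TC1088, lay well above the second, 2260 in TC1869. FZD8 also peaked in TC1088, at 3036 normalized counts against 1026 in TC640 and a median of 224, and was lowest in TC538 (3.58) and TC2289 (7.69). FZD2 went the other way in TC1088, with 12.0 normalized counts against a median of 627 and a highest value of 6437 in TC1869. TC538 with 10.8 and TC1936 with 20.1 were at the same low end of FZD2. LRP5 ranged from 606 normalized counts in TC538 through 4638 to 15402 in TC2011, and LRP6 from 1532 in TC1744 through 3318 to 9916 in TC538. Before scaling, TC538 had 2766 counts of LRP6, below the median of 3141.5.

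LGR5, an R-spondin receptor known as a stem cell marker in several epithelia, separated 3 tumors from the rest. It was highest in TC1020 with 4042 normalized counts, TC2289 with 3427 and TC1473 with 3140. The fourth tumor, TC1088, had 411.5 and the fifth, TC22, 64.0, against a median of 24.2 and a lowest value of 1.82 in TC1123. The 2 other tumors with high C-cell markers were not part of this: TC1601 had 32.6 and TC1936 had 5.29. LGR4, the related receptor, was lowest in TC2289 with 206 normalized counts, then TC1601 with 360.5, TC2011 with 524 and TC1020 with 647. Its median was 2017 and its highest value 6666 in TC1123, so the 3 tumors with the most LGR5 were not those with the most LGR4.

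The feedback genes did not share 1 order of tumors. AXIN2 was highest in TC1020 with 1467 normalized counts, TC1869 with 1264, TC2289 with 866, TC1601 with 770 and TC1473 with 591, against a median of 216. TC1936 had 191, below the median, and the lowest values were 53.0 in TC812 and 53.8 in TC538. RNF43 was lowest in TC1241 with 15.1 normalized counts, TC1020 with 17.4 and TC1473 with 26.4, around a median of 307 and a highest value of 1175 in TC2011. ZNRF3 was lowest in TC1473 with 60.0, then TC538 with 104 and TC1020 with 117, around a median of 436 and a highest value of 1024 in TC1744. TC1020 and TC1473 thus held high AXIN2 and LGR5 together with low RNF43 and ZNRF3. No test was made between these tumors and the others, because the labels give no groups.

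**Figure D2:**
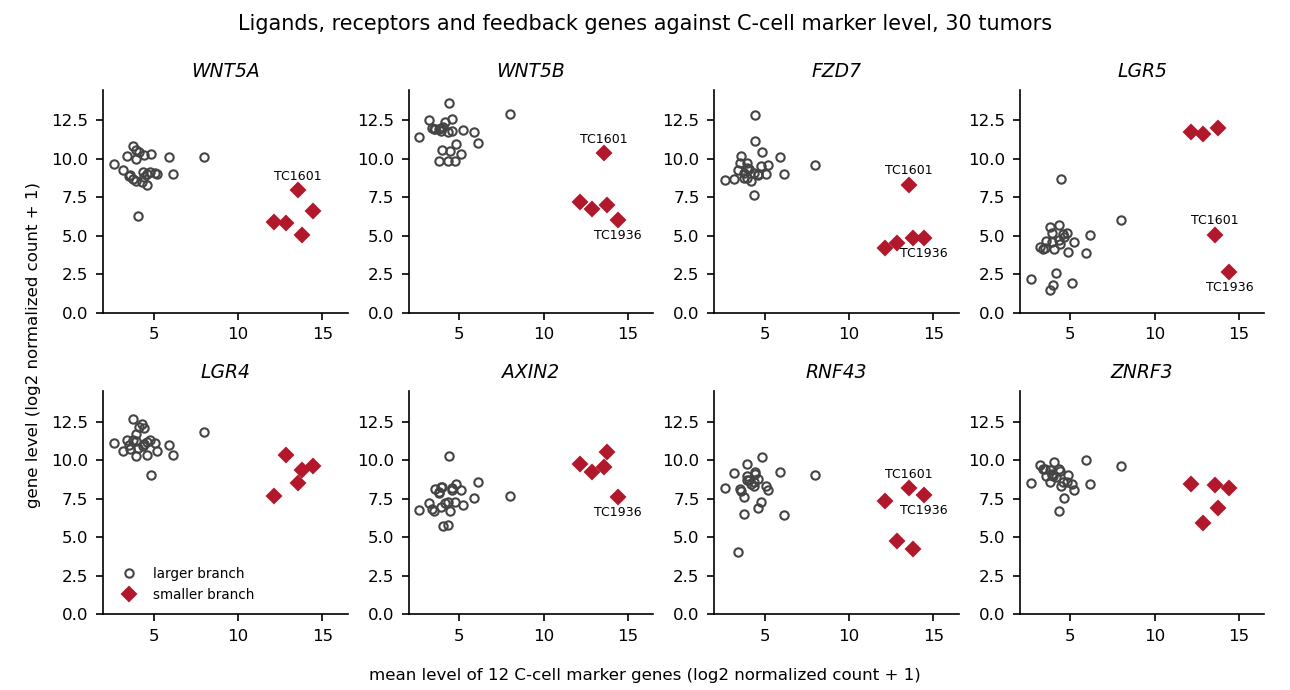
Each panel plots the level of 1 gene (log2 of normalized count plus 1) against the mean level of 12 C-cell marker genes for the 30 tumors; filled diamonds are the 5 tumors of the smaller branch, circles the 25 of the larger. FZD7 and WNT5B were low in 4 of the diamonds and not in TC1601, and LGR5 was high in 3 of them and not in TC1601 or TC1936.

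Of the secreted inhibitors, SFRP1, SFRP2 and SFRP4 had the widest spread. SFRP2 was at 0 in TC1088 and TC1241, at 0.961 normalized counts in TC640 and 1.85 in TC1218, and reached 2747 in TC2011 and 2707 in TC2089 around a median of 557. SFRP1 ran from 0 in TC538 and 6.35 in TC1936 through 475 to 7298 in TC2089. SFRP4 was at 0 in TC1088, TC538 and TC812 and reached 595 in TC2089, with a median of 33.5. TC2089 was therefore at or next to the top for all 3 and also highest for WNT11. That tumor had the highest fibroblast marker level of its branch (12.1) and the highest skeletal muscle marker level of all 30 tumors (9.57).

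Other inhibitors, described after their values were seen, had peaks in other tumors. DKK3, a divergent family member, was highest in TC1936 with 13919 normalized counts, then in TC1473 (6459), TC1601 (5877), TC2289 (4887) and TC1020 (4635). These were the same 5 tumors as the top of the C-cell markers. TC815 of the larger branch came close behind with 4270, so no clear step separated them. SFRP5 was also highest in TC1936, with 4498 normalized counts, and second in TC627 with 1287. WIF1 reached 9986 normalized counts in TC815 and 2952 in TC1994 and was lowest in TC1088 with 4.98. DKK2 was highest in TC1936 (578), TC1601 (432) and TC1088 (417.5).

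Whether the genes moved with AXIN2 level, fibroblast markers or thyroid follicular markers was tested within the 25 tumors of the larger branch only. The reason was that the 30 tumors fell into separate clusters. Slopes are log2 changes of a gene per log2 unit of the quantity on the x axis, from edgeR's quasi-likelihood test, with Benjamini-Hochberg adjustment over all genes. WNT16 did not pass the filter in these tumors, which left 38 genes.

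AXIN2 level was taken as a stand-in for canonical pathway output because AXIN2 is a target gene. Whether it follows that output in these tumors was not tested. Over the 25 tumors AXIN2 also went with the endothelial markers (r = 0.478, unadjusted permutation p = 0.0148). With log2 total counts r was 0.453 (unadjusted permutation p = 0.0251) and rho 0.192 (p = 0.351). None of the 37 other genes was called with AXIN2 by edgeR at an adjusted p below 0.05. Correlations were also adjusted over 113 relations, and DKK3 and WNT4 were named after their values were seen. DKK3 passed by Pearson's r (0.606, permutation adjusted p = 0.0477) and not by rho (0.572, adjusted p = 0.0958). WNT4 had rho = 0.605 (permutation adjusted p = 0.0591) and r = 0.534 (adjusted p = 0.1275). Without TC538 r was 0.513 for DKK3 and 0.400 for WNT4. Of all 18105 genes tested, 0.674% rose with AXIN2 and 0.657% fell. At an unadjusted p below 0.05 there were 3 of the 37 and 4458 of all genes. FZD9 had the smallest p, with a slope of 0.72 (SE 0.29, edgeR adjusted p = 0.131), followed by SFRP5 at 0.74 (adjusted p = 0.171) and FZD3 at -0.49 (adjusted p = 0.190). The other feedback genes had slopes of 0.19 for RNF43 (adjusted p = 0.599) and -0.03 for ZNRF3 (adjusted p = 0.926), and LGR5 had -0.59 (adjusted p = 0.278). The median slope was 0.10 over the 37 genes and -0.04 over all genes. The call count over all genes rested on single tumors: 122 rising and 119 falling genes became 4 genes in all without TC538 (0.0166% rising, 0.00554% falling), 6 without TC2011 and 2621 without TC812. TC538 had the fewest counts of all tumors and the second lowest AXIN2. Leaving it out turned 7 of the 37 slopes to the other sign, FZD3 among them (0.14).

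**Figure D3:**
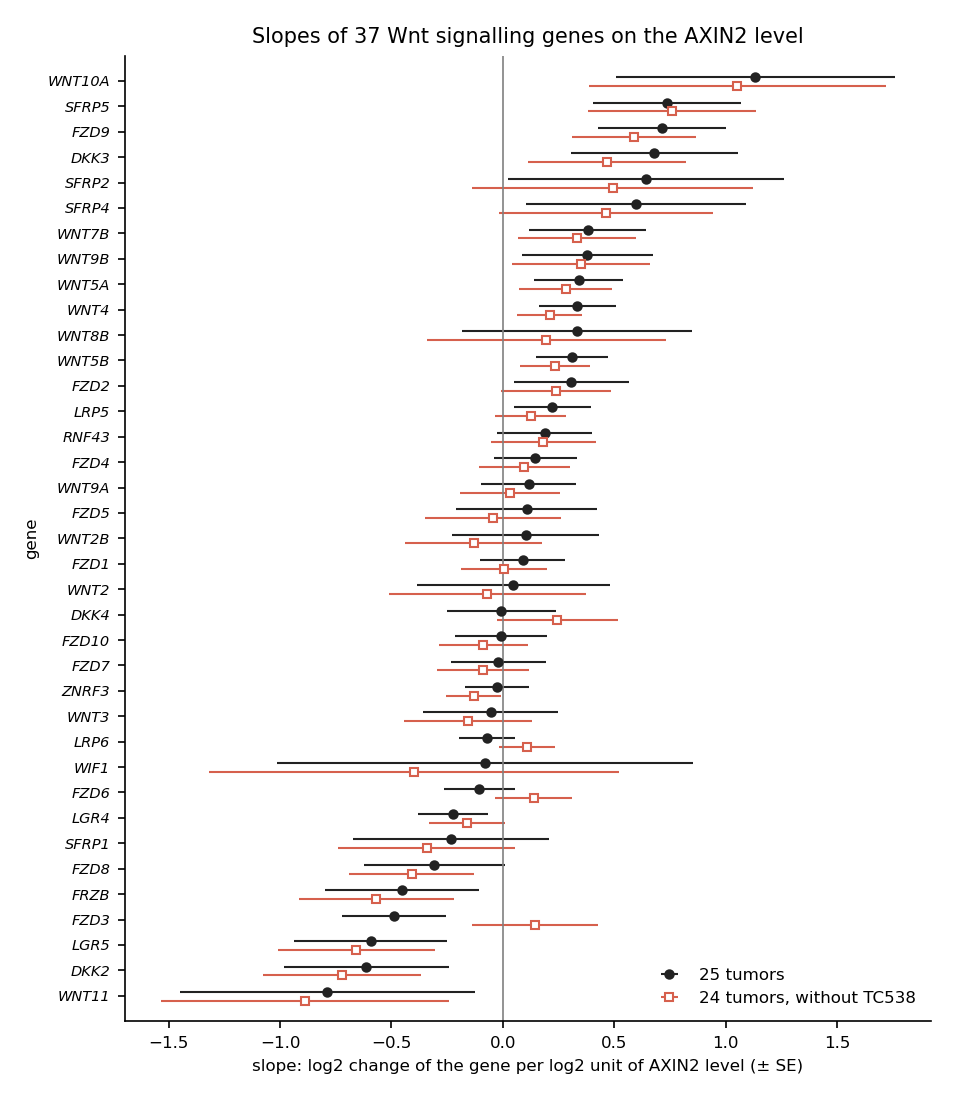
Points are the slopes of 37 Wnt signalling genes on the AXIN2 level (log2 per log2 unit) from edgeR, with bars of ± 1 SE, in the 25 tumors of the larger branch (filled) and without TC538 (open). Slopes lie on both sides of 0, none was called, and FZD3 moves from -0.49 to 0.14.

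The other Wnt lists had no call with AXIN2. Of 27 intracellular components, 16 non-canonical components, 12 secretion and modulator genes and 14 target genes, 0 were called in either direction. The smallest p among intracellular components was that of the kinase GSK3A, with a slope of 0.31 (edgeR adjusted p = 0.0563), then TNKS2 (-0.35, adjusted p = 0.117) and beta-catenin itself, CTNNB1 (-0.31, adjusted p = 0.142). Among target genes the smallest were APCDD1 (0.63, adjusted p = 0.146), TCF7 (0.42, adjusted p = 0.206) and CCND1 (0.31, adjusted p = 0.242). NFATC1 led the non-canonical list with 0.38 (adjusted p = 0.0609), before PRICKLE2 with -0.24 and DAAM2 with 0.47. TRABD2A, which cleaves Wnt ligands, had a slope of -1.13 (adjusted p = 0.131), ADGRA2 0.46, and the Wnt acyltransferase PORCN 0.17. The target list had a median slope of 0.21.

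The fibroblast marker level, the mean level of 13 collagen and stromal genes, was next. Of the 38 genes 3 rose with it, the inhibitors SFRP2 and SFRP4 and the ligand WNT11, and 0 fell, against 0.547% of all 18093 genes that rose and 0.619% that fell. SFRP2 rose by 2.63 log2 units per log2 unit of fibroblast markers (SE 0.357, edgeR adjusted p = 0.000143), with a Pearson r of 0.928 and a Spearman rho of 0.853. Without the tumors with the most extreme fibroblast levels, TC1088 and TC640, r was 0.896. SFRP4 rose with a slope of 1.76 (SE 0.289, adjusted p = 0.00105, r = 0.82, rho = 0.824), and r was 0.818 without the same tumors. Both calls held whichever of the 25 tumors was left out, and without TC538, when 0.654% of all genes rose and 0.682% fell, SFRP2, SFRP4 and WNT11 were again called.

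The WNT11 call rested on TC2089. Its slope was 1.30 (SE 0.241, edgeR adjusted p = 0.00375), but r was 0.493 and rho 0.375, and without TC2089 the slope was 0.65 with an adjusted p of 0.288. TC2089 also had the highest skeletal muscle marker level, and across the 25 tumors WNT11 had a rho of 0.585 with those markers, SFRP4 0.62 and SFRP2 0.561. By rho none of these 3 passed a permutation test adjusted over 304 relations of genes with marker lists (adjusted p = 0.151 for WNT11, 0.0809 for SFRP4 and 0.173 for SFRP2). By Pearson's r SFRP4 (r = 0.644, permutation adjusted p = 0.0219) and SFRP2 (r = 0.62, adjusted p = 0.0291) passed and WNT11 (r = 0.62, adjusted p = 0.0608) did not. Without TC2089 and TC1088, the tumors farthest from the median of those markers, r was 0.508 for SFRP4, 0.508 for SFRP2 and 0.49 for WNT11. Whether muscle in the sample contributed to these values was not tested. The median slope on fibroblast markers was 0.03 over the 38 genes and -0.03 over all genes, and 0 genes of the other 4 Wnt lists were called.

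**Figure D4:**
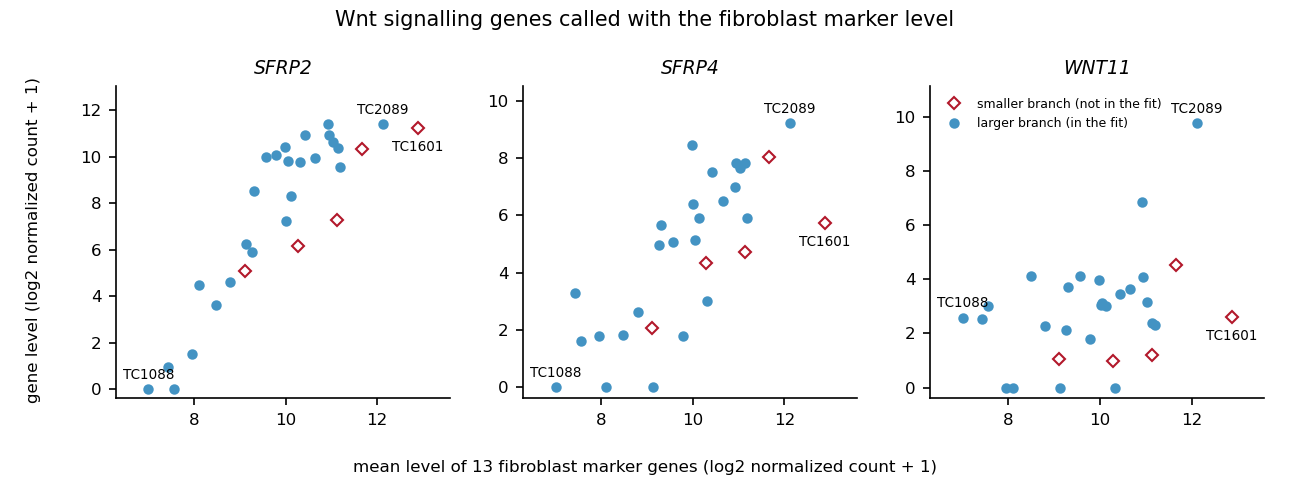
Levels of SFRP2, SFRP4 and WNT11 (log2 of normalized count plus 1) are plotted against the mean level of 13 fibroblast marker genes; filled circles are the 25 tumors of the larger branch used in the fit, open diamonds the 5 of the smaller branch. SFRP2 and SFRP4 climb across the range, whereas WNT11 is set apart by TC2089.

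Against the thyroid follicular marker level, a measure of differentiation, 4 of the 38 genes were called: WNT9B rose, and LGR5, FZD8 and FZD7 fell. Over all 18092 genes 1.7% rose and 3.24% fell. LGR5 fell by 0.43 log2 units per log2 unit of follicular markers (SE 0.0748, edgeR adjusted p = 0.000647), FZD8 by 0.37 (SE 0.0848, adjusted p = 0.00902) and FZD7 by 0.22 (SE 0.0541, adjusted p = 0.0152). These 3 calls rested on TC1088, the tumor with almost no follicular marker signal. Without it LGR5 had a slope of -0.25 (adjusted p = 0.783), FZD8 -0.28 (adjusted p = 0.733) and FZD7 0.26 (adjusted p = 0.320), the last with the opposite sign. TC1088 combined low thyroid markers with high LGR5, FZD7 and FZD8, and no relation of these receptors was called in the other 24 tumors.

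WNT9B had values of 236 normalized counts in TC1869, 230 in TC1744 and 163 in TC902, with a median of 10.7 and 0 in TC627. Its slope on follicular markers was 0.58 (SE 0.172, edgeR adjusted p = 0.0495), and it was no longer called in 18 of the 25 fits that left out 1 tumor, with adjusted p up to 0.152 without TC1869. For AXIN2 the slope was 0.24 (SE 0.0751, adjusted p = 0.0589), so it was not called in the 25 tumors. It was called without TC1088 (0.52, adjusted p = 0.0396), when 72 of all 17995 genes rose and 106 fell. It was also called without TC538 (0.24, adjusted p = 0.0414), when 2.53% of all genes rose and 4.21% fell. Without TC1869, the tumor with the highest follicular markers and the highest AXIN2 of its branch, the AXIN2 slope was 0.16 (adjusted p = 0.273). The correlation of AXIN2 with follicular markers had r = 0.481 and rho = 0.538, and r = 0.623 without TC1088 and TC815, the tumors farthest from the median.

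**Figure D5:**
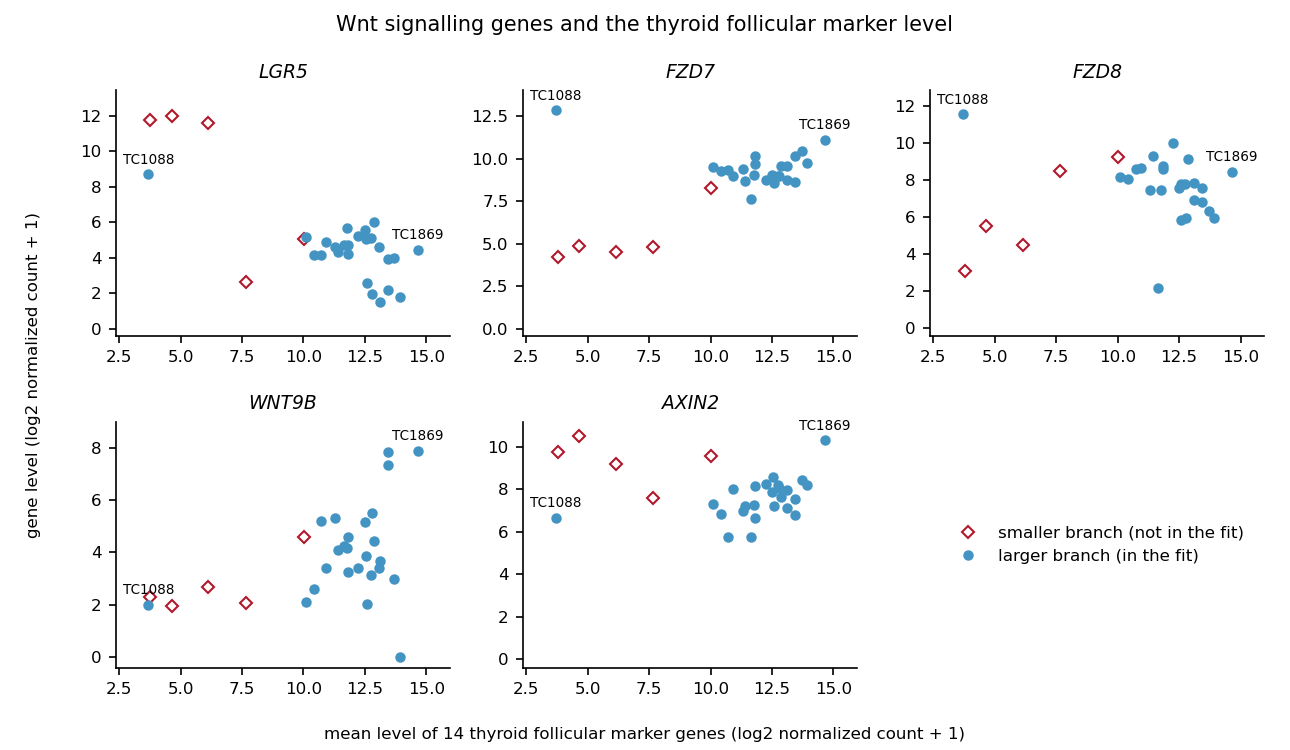
Levels of LGR5, FZD7, FZD8, WNT9B and AXIN2 (log2 of normalized count plus 1) are plotted against the mean level of 14 thyroid follicular marker genes, with symbols as for the fibroblast plot. TC1088 lies alone at the left of the fitted tumors, at the top for LGR5, FZD7 and FZD8, and AXIN2 is highest among the fitted tumors in TC1869.

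A few genes of the other Wnt lists were called with the follicular markers, beside the 1.7% of all genes that rose and 3.24% that fell. Among 16 non-canonical components 2 fell, the receptor kinase ROR2 (slope -0.45, edgeR adjusted p = 0.0113) and the planar polarity cadherin CELSR1 (-0.36, adjusted p = 0.0285). SOSTDC1, a secreted LRP antagonist, rose with a slope of 1.84 (adjusted p = 0.00144) as the 1 call among 12 secretion and modulator genes. The target gene CD44 rose with 0.44 (adjusted p = 0.0136) as the 1 call among 14, and 0 of 27 intracellular components were called. Without TC1088 only SOSTDC1 of these was still called (1.89, adjusted p = 0.0163). ROR2 then had a slope of the opposite sign (0.93, adjusted p = 0.242), CELSR1 one of -0.35 (adjusted p = 0.612) and CD44 one of 0.51 (adjusted p = 0.198). KREMEN2 of the secretion and modulator genes fell in that fit (-1.17, adjusted p = 0.039). The target gene PTPRU rose (0.92, adjusted p = 0.041). With TC1088 neither was called, at slopes of -0.81 (adjusted p = 0.142) for KREMEN2 and -0.17 (adjusted p = 0.371) for PTPRU. Without TC1088, 72 of all 17995 genes rose and 106 fell.

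The 38 genes were then paired with one another over the same 25 tumors, 703 pairs in all. By Spearman's rho with 200000 permutations, 100000 for each order of the pair, 2 pairs (0.284%) were positively correlated at an adjusted p below 0.05 and 0 negatively. SFRP2 and SFRP4 had rho = 0.799 (permutation p = 1e-05, adjusted p = 0.00527, r = 0.759, and r = 0.706 without TC1088 and TC1241). FZD2 and FZD10 had rho = 0.789 (permutation p = 1.5e-05, adjusted p = 0.00527, r = 0.813, and r = 0.757 without TC1088 and TC812). Across all pairs of genes that passed the filter, 0.341% had a rho at or above 0.789 and 0.146% one as large in the negative direction. Both pairs were also called without TC538, with rho of 0.805 and 0.763.

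The next pairs did not pass the adjustment. They were FZD7 with WNT7B (rho = 0.661, permutation adjusted p = 0.0768), FZD3 with FZD6 (0.647, adjusted p = 0.0768) and FZD3 with DKK4 (0.642, adjusted p = 0.0768). FZD3 and FZD6 both had their highest normalized counts in TC538, 14605 and 12676 against medians of 887 and 3097. Before scaling TC538 was not highest: it had 4074 counts of FZD3 against 5577 in TC902, and 3536 of FZD6 against 8825 in TC640. With its size factor of 0.279, TC538 held the highest level of 20.0% of all genes that passed the filter. The lowest rho values were -0.666 for LRP5 with LGR4, -0.64 for LRP6 with FZD4, -0.619 for LRP6 with FZD1, -0.61 for WNT5A with SFRP5 and -0.585 for LGR4 with SFRP5, with permutation adjusted p between 0.0768 and 0.105. WNT3 and WNT9B, which are neighbors in the RefSeq annotation of the UU_Cfam_GSD_1.0 assembly, had a rho of -0.126 (permutation adjusted p = 0.803).

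Some of these values carry a limit from the annotation. In that RefSeq annotation 13 of the 50 genes overlap another gene and 4 overlap a protein-coding one: ZNRF3, WNT2B, WNT5B (with FBXL14) and WNT8A. The sources used here do not say whether strand was used in counting, so reads of such a gene and of an overlapping partner may not be separable.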

How the data were processed

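Total RNA from 30 canine thyroid tumors had been sequenced. The authors aligned reads with STAR to CanFam3.1 and deposited raw counts per gene, with symbols, in 1 table; the strand setting is not given in the sources used here. The labels give 1 group and no replicate numbers. The 50 genes were selected by symbol; members, marker lists and tests were chosen with earlier results of these data known.

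Levels were log2(count / median-of-ratios size factor + 1). Genes needed at least 10 counts in at least 5 tumors. Ward clustering used 760 genes (mean level above 2, variance above 6, the 50 genes left out) and gave branches of 25 and 5. Within the 25, every gene's counts were fitted on the AXIN2, fibroblast marker or follicular marker level with edgeR 4.0.16 (TMM, quasi-likelihood, R 4.3.3) and called at an adjusted p below 0.05. Spearman and Pearson correlations had 100000 permutations (two-sided; 200000 for pairs of the 50 genes). The scripts were tested on simulated counts with known slopes on AXIN2. For a true slope of 1, edgeR recovered 68% of the changed genes and DESeq2 85%. In the whole simulation, which held true slopes of 1 and 2, edgeR made 4 false calls and DESeq2 50. Counts were drawn for each gene on its own, so shifts that many genes share in a tumor were not simulated. Smaller slopes were not simulated, so the fit on AXIN2 may miss them. DESeq2 1.42.0, other filters, scalings and leaving out tumors were alternatives. No pair of tumors had identical counts. P-values measure spread between tumors. The depth, between 12288945 and 45148677 counts, limits genes of a few counts.

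Genes were described with values if they were AXIN2, RNF43, ZNRF3 or LGR5, were among the 3 with the widest 10th to 90th percentile range of their role (median normalized count at least 20), were called (at most 10 per fit), had a highest tumor at least 2 log2 units above the next with at least 100 counts, or were in the 5 highest or 5 lowest pairs; of the other Wnt lists, the 3 smallest p in the AXIN2 fit. Other genes are said to be chosen after their values were seen. All 50 symbols matched the RefSeq table. TNNC2, TIKI1, CTNNBIP1 and VANGL2 of the lists were not matched. No sequences are shown.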

Additional observations from a re-analysis of the deposited data

How the results depend on the processing

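SFRP2 and SFRP4 kept their fibroblast calls in every alternative fitted with edgeR or DESeq2. The counts of called genes moved far more. With the AXIN2 level, 122 rising and 119 falling genes became 203 and 290 with DESeq2's size factors, 577 and 696 in DESeq2, 223 and 503 with no count filter, 38 and 67 in all 30 tumors with the branch as a term, 1296 and 738 without that term, 77 and 72 without TC1088, 3 and 1 without TC538, 2 and 1 without both, and 0 and 0 by Spearman's rho (2548 at an unadjusted p below 0.05). The falling count was 231 with the filter at 15 tumors and 76 with a pseudocount of 8. Without the branch term 3 of the 50 genes rose and 1 fell. With fibroblast markers, 99 rising and 112 falling genes became 204 and 450 with no filter and 323 and 699 with the list's median. The rising count was 259 in DESeq2, 159 with the branch term and 392 without it. The falling count was 59 with the stricter filter, 19 without TC1088, 21 without both tumors and 2 by Spearman, and 1 of the 50 genes fell with no filter. With follicular markers, 308 rising and 586 falling genes became 1541 and 2470 without the branch term, 72 and 106 without TC1088, 130 and 140 without both tumors, and 56 and 25 by Spearman. Rising was 982 in DESeq2 and falling 987 with no filter. Of the 50 genes, 3 rose in DESeq2, 2 with the branch term or without TC538, 5 without the branch term and 0 by Spearman. The 3 that fell became 5 without the branch term, and 0 without TC1088, without both tumors or by Spearman. The 2 positive and 0 negative pairs became 7 and 1 by Pearson, 13 and 6 without TC1088, and the negative count was 1 with TMM scaling and 2 without TC538 or without both tumors. Slopes were followed through all alternatives for selected genes only. Of those on AXIN2, the sign changed for RNF43 (-0.11, all tumors without the branch term) and LGR5 (1.50 in that fit, 0.088 without TC1088, 0.10 without both). It also changed for FZD3 (0.14 without TC538, 0.10 without both) and ZNRF3 (0.10 without TC812). Of those on follicular markers, it changed for FZD7 (0.26 without TC1088, 0.25 without both) and AXIN2 (-0.10, all tumors without the branch term). Other genes changed sign too. Without TC538, 7 of the 37 slopes on AXIN2 did so, FZD3 among them. DKK2 on fibroblast markers went from -0.10 to 0.95 without TC1088. It was called in that fit, where 4 of the 50 genes rose. Fits without both tumors and those leaving out each other tumor were chosen after seeing the data. The cause of these changes was not tested. No paired analysis was possible because the labels give one group and no replicate numbers.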

Other observations

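FZD4, the frizzled receptor known from blood vessel development, had the closest relation of the 38 genes to an endothelial marker level. It was chosen after its values were seen. FZD4 ranged from 73.0 normalized counts in TC2289 and 235 in TC1088 through a median of 883 to 2385 in TC1744. Over the 25 tumors of the larger branch it had rho = 0.791 with the 9 endothelial markers (permutation p = 1e-05, the smallest that was possible, adjusted p = 0.00101 over 304 relations, r = 0.766, and r = 0.733 without TC538 and TC1088). With the 7 smooth muscle and pericyte markers rho was 0.74 (permutation adjusted p = 0.00304, r = 0.751, and r = 0.675 without TC1088 and TC22). SFRP2 and SFRP4 with the fibroblast markers were the other 2 relations past the adjustment by rho.

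Weaker relations did not pass it by rho. DKK3 had rho = 0.489 with the endothelial markers (permutation adjusted p = 0.2675). By Pearson's r it passed (0.646, permutation adjusted p = 0.0264), and r was 0.446 without TC538 and TC1088. WNT5A had rho = 0.545 with the endothelial markers (permutation adjusted p = 0.173). DKK2 had rho = 0.555 and r = 0.429 with the fibroblast markers (permutation adjusted p = 0.173 for rho), and r was 0.738 without TC1088 and TC640. TC1088 had 417.5 normalized counts of DKK2 at the lowest fibroblast level of all tumors, 7.01. With TC1088 in the edgeR fit, the slope of DKK2 on fibroblast markers was -0.10 (adjusted p = 0.876). Without TC1088 the slope was 0.95 (edgeR adjusted p = 0.038), so DKK2 was called. In that fit 85 of all 17996 genes rose and 19 fell.

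Some of the genes below the count filter were scarce in most tumors and had a peak in 1. WNT10B, with a median of 1.91 normalized counts, reached 54.2 in TC1020, and WNT3A, at 0 in 22 tumors, reached 42.9 in TC1601. DKK1, with a median of 1.27, was highest in TC2089 with 51.4. These 3 genes were named after their values were seen.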
